A study of Mus musculus with 6 samples.

Results

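A set of 10 genes of the fibroblast growth factor (FGF) system was followed in sorted mammary cells of pubertal mice: the receptors Fgfr1, Fgfr2 and Fgfr3, the ligands Fgf1, Fgf2, Fgf7 and Fgf10, and the feedback inhibitors Spry1, Spry2 and Spry4. They were taken by symbol, and all 10 were found among the 55291 gene symbols of the count tables. In RefSeq on GRCm38.p6, Fgfr1 lies on chromosome 8 (25518759 to 25575718), Fgfr2 on chromosome 7 (130162451 to 130266808), Fgfr3 on chromosome 5 (33721724 to 33737068), Fgf7 on chromosome 2 (126034658 to 126091185), Fgf10 on chromosome 13 (118714699 to 118792573) and Spry2 on chromosome 14 (105891947 to 105896819). Fgf2 (37348477 to 37410106) and Spry1 (37639947 to 37644599) are both on chromosome 3, and Fgf1 and Spry4 are both on chromosome 18. RNA had been sequenced from 6 libraries, 2 for each of 3 populations: cells labeled Gpr125-negative, TEB-distal Gpr125+ cells (from the part of the gland that holds the terminal end buds, the growing tips of the ducts) and nipple-proximal Gpr125+ cells. Every library came from both abdominal glands of 5 pooled mice, 6 weeks old, and all mice were Adgra3-lz/+, so that every population, the Gpr125-negative included, carried 1 copy of Adgra3 (the gene of the adhesion receptor Gpr125) replaced by a β-galactosidase fusion. Cells positive for CD31, CD45 or Ter119 had been excluded, cells with high surface CD49f (integrin α6, a basal cell marker) were kept, and Gpr125+ and Gpr125-negative cells were separated by how much FDG, a fluorogenic substrate of β-galactosidase, they converted. No gland region is recorded for the Gpr125-negative libraries, and the pair of them was used as the common reference.

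FGFs are secreted proteins that bind receptor tyrosine kinases together with heparan sulfate. The activated receptor signals through adaptors, RAS and the kinases RAF, MEK and ERK, and ERK activity induces its own inhibitors, among them the Sprouty proteins and dual-specificity phosphatases. In the mammary gland, Fgf10 from the mesenchyme and the Fgfr2 splice form that binds it are needed for the embryonic buds, and epithelial FGF receptors are needed for growth at the terminal end buds.

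Total counts ranged from 20134890 to 37296640 per library. The second Gpr125-negative library, at a total of 33300561, had 17401 genes with a count, whereas the others had 20384 to 21963. The part of this in the values of that library was not tested. Levels are given in CPM (read counts divided by the library size, as scaled by edgeR's TMM method), and where genes are compared with each other, in CPM per kilobase of annotated exon. For the latter the exons of all annotated transcripts of a gene were merged, which can exceed the length of the transcripts expressed. Orders and shares per length depend on this choice. A count of 3, taken as the floor of detection, was worth 0.0645 to 0.147 CPM, which covers counting error only, and lower levels are printed as counted but read as no more than the floor. All 12 basal markers, such as the keratin genes Krt5 and Krt14, were counted in every library, with a summed level of 3393 to 3554 CPM in the libraries labeled Gpr125-negative, 4017 to 23031 in TEB-distal and 9449 to 14952 in nipple-proximal libraries. The 12 luminal markers were also present, with sums of 1448 to 3056 CPM over the 6 libraries. The 12 endothelial markers, whose cells the CD31 gate should remove, summed to 988 and 1440 CPM in the libraries labeled Gpr125-negative, against 19.6 to 24.0 in TEB-distal and 30.2 and 273 in nipple-proximal libraries, with Robo4 at 0 counts in both TEB-distal libraries, Vwf at 0 in the second Gpr125-negative library and Tek at 0 in the second nipple-proximal library. The 10 leukocyte markers summed to 77.4 to 309 CPM and the 8 pericyte markers to 6.67 to 48.8 CPM over the 6 libraries. The 6 adipocyte markers summed to 636 and 688 CPM in the libraries labeled Gpr125-negative and to 13.3 to 52.4 in the other 4. In the Gpr125-negative libraries nearly all of it was the fatty acid binding protein gene Fabp4, at 672 and 631 CPM, and in the nipple-proximal libraries most of it was the lipase gene Lipe, at 28.8 and 18.4 CPM. In the Gpr125-negative libraries Lipe had 757 and 25 counts, Cfd 0 and 128 and Lep 0 and 3, while Adipoq and Plin1 were at 0 or 1 count. Adgra3 itself did not follow the labels. Its counts were 1658 and 550 in the libraries labeled Gpr125-negative, 385 and 142 in TEB-distal and 391 and 262 in nipple-proximal libraries. Its level was 35.7 and 18.6 CPM in the libraries labeled Gpr125-negative, 15.011 and 4.83 in TEB-distal and 19.2 and 12.3 in nipple-proximal libraries. Both TEB-distal libraries thus lay below both Gpr125-negative ones, whereas the nipple-proximal pair overlapped with the Gpr125-negative pair. The β-galactosidase fusion keeps the 5′ exons of Adgra3, so that these counts do not separate the fusion from the intact copy. Why Adgra3 did not follow the labels was not tested, and each direction below is drawn from libraries named by their labels.

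Fgfr1 was the most abundant of the 3 receptor genes per length of exon in every library. Its level was 373 and 126 CPM in the libraries labeled Gpr125-negative, 235 and 308 in TEB-distal and 572 and 387 in nipple-proximal libraries. The nipple-proximal libraries were highest, the second Gpr125-negative library was lowest, and its pair differed 2.97-fold. Fgfr2, which binds Fgf7 and Fgf10 in its epithelial splice form, was at 28.2 and 30.0 CPM in the libraries labeled Gpr125-negative, 66.5 and 33.4 in TEB-distal and 32.3 and 21.3 in nipple-proximal libraries. Of the 6 libraries, 5 thus lay between 21.3 and 33.4 CPM, and the first TEB-distal library stood above them. The counts are per gene, so that the splice forms of the receptors could not be separated, and in the GENCODE annotation Fgfr2 shares exon bases with Ctbp2, whose reads there cannot be told from its own. Fgfr3 was the lowest of the 3, at 5.79 and 7.96 CPM in the libraries labeled Gpr125-negative, 0.0780 and 1.91 in TEB-distal and 2.505 and 3.67 in nipple-proximal libraries. The first TEB-distal library held 2 counts of Fgfr3, under the 3-count floor. Fgfr3 shares 998 of its 7158 exon bases with G630022F23Rik on the opposite strand, which had 0 to 21 counts, and without strand reads there cannot be told apart.

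Per kilobase of exon, the order Fgfr1, Fgfr2, Fgfr3 held in 6 of 6 libraries. Fgfr1 made up between 76.0% and 94.3% of the summed receptor level per length, Fgfr2 between 4.94% and 21.3%, and Fgfr3 at most 6.64%. These shares need no scaling between libraries. The share of Fgfr1 was lowest in the second Gpr125-negative library, at 76.0%, and in the first TEB-distal library, at 78.7%, and it was 94.3% and 93.8% in nipple-proximal libraries. The ratio of Fgfr2 to Fgfr1 per length was 0.270 and 0.104 in TEB-distal libraries and 0.0540 and 0.0526 in nipple-proximal libraries, which do not overlap. In the libraries labeled Gpr125-negative it was 0.0722 and 0.228, which spans most of that range. How many other gene pairs separate the Gpr125+ populations in this way was not counted, and the levels of 33.5% of all genes did not overlap between them.

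**Figure D1:**
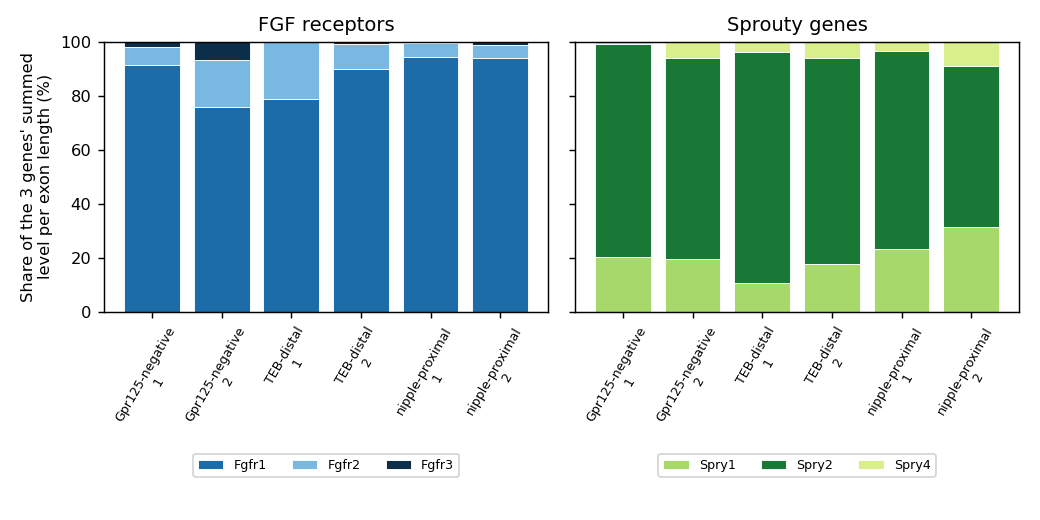
Shares of the summed level per kilobase of exon within the 3 FGF receptor genes (left) and the 3 Sprouty genes (right), in percent, with 1 stacked bar for each of the 6 libraries. Fgfr1 takes 76.0% to 94.3% of the receptor bars and Spry2 takes 59.7% to 85.4% of the Sprouty bars.

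The ligand genes were low and varied widely between libraries of the same population. In 5 of 6 libraries each of the 4 ligands lay, per kilobase of exon, under every receptor and Sprouty gene other than Fgfr3 and Spry4, and the exception was the second Gpr125-negative library, where Fgf1 was just above Fgfr2. Fgf1, an FGF without a classical secretion signal that binds all FGF receptors, was at 0.0215 and 16.2 CPM in the libraries labeled Gpr125-negative, 6.94 and 0.511 in TEB-distal and 3.93 and 1.46 in nipple-proximal libraries. The highest and the lowest value both came from the Gpr125-negative pair, from 477 counts and 1 count. Fgf2, the other member without a classical secretion signal, was at 0.452 and 17.9 CPM in the libraries labeled Gpr125-negative, 7.88 and 3.92 in TEB-distal and 2.01 and 4.71 in nipple-proximal libraries. Here too the Gpr125-negative pair held both extremes and differed 39.7-fold, whereas the TEB-distal pair differed 2.01-fold and the nipple-proximal pair 2.34-fold. Fgf2 shares exon bases with Nudt6, which is read from the opposite strand and had 75 to 308 counts, and without strand their reads cannot be told apart there.

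Fgf7 and Fgf10, ligands known from mesenchymal cells and fibroblasts, were at or near 0. Fgf7 had 35 and 1 counts in the libraries labeled Gpr125-negative, 5 and 0 in TEB-distal and 21 and 1 in nipple-proximal libraries, which is at most 1.03 CPM. Fgf10 had 0 counts in 6 of 6 libraries, which allows a level of up to 0.0645 to 0.147 CPM depending on the library. The 10 fibroblast markers were not at 0: they summed to 96.4 and 243 CPM in the libraries labeled Gpr125-negative, 119 and 189 in TEB-distal and 116 and 65.1 in nipple-proximal libraries. Most of each sum was decorin (Dcn), at 17.3 to 122 CPM, and podoplanin (Pdpn), at 10.5 to 94.2 CPM. Col1a2 and Lum reached 27.1 and 19.5 CPM. Col1a1 and Col3a1 were at most 6.33 and 7.88 CPM, with 0 and 1 counts in the second Gpr125-negative library. The methods of the study list an antibody to the fibroblast receptor CD140a, the product of Pdgfra, beside those to the excluded markers, but the description of the sort does not name it. Pdgfra had 123 and 1 counts in the libraries labeled Gpr125-negative, 173 and 121 in TEB-distal and 1 and 17 in nipple-proximal libraries. All 4 ligands together came to between 0.302 and 5.61 CPM per kb, with both extremes in the Gpr125-negative pair, against 16.7 to 61.4 CPM per kb for the 3 receptors and 14.7 to 38.6 CPM per kb for the 3 Sprouty genes. In RNA from a pool of cells, fewer cells of a type and less RNA per cell cannot be told apart.

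**Figure D2:**
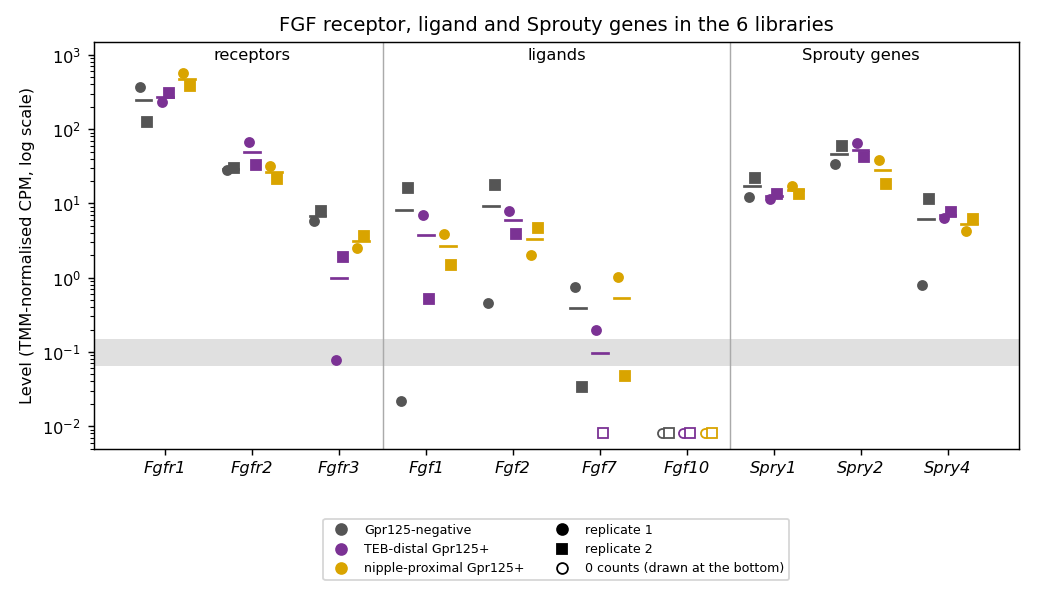
Level of each of the 10 genes in TMM-scaled CPM (log axis) in the 6 libraries, colored by population, with circles for replicate 1, squares for replicate 2 and a short line at the mean of each pair. The gray band is the level of 3 counts over the libraries (0.0645 to 0.147 CPM), open symbols at the bottom are 0 counts, and for Fgf1, Fgf2 and Spry4 the Gpr125-negative pair holds both the lowest and the highest value.

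The Sprouty genes were led by Spry2. Spry2 was at 33.7 and 59.7 CPM in the libraries labeled Gpr125-negative, 64.5 and 41.9 in TEB-distal and 38.8 and 18.4 in nipple-proximal libraries. Both TEB-distal libraries lay above both nipple-proximal ones, and the Gpr125-negative pair overlapped with each. Spry1 was at 12.2 and 22.0 CPM in the libraries labeled Gpr125-negative, 11.4 and 13.6 in TEB-distal and 17.3 and 13.4 in nipple-proximal libraries. It was the steadiest of the members: its range over the 6 libraries was 0.94 on the log2 scale, where the median gene tested ranged over 2.99, and only 3.33% of genes had a smaller range. Spry1 shares 710 of its 2906 exon bases with Gm42922 on the opposite strand, which had 0 or 1 count, and reads there cannot be told apart either. Spry4 was at 0.796 and 11.4 CPM in the libraries labeled Gpr125-negative, 6.36 and 7.76 in TEB-distal and 4.27 and 6.26 in nipple-proximal libraries. As with Fgf1 and Fgf2, its lowest and highest values were the first and the second Gpr125-negative library, 14.4-fold apart.

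Per kilobase of exon, Spry2 exceeded Spry1 and Spry1 exceeded Spry4 in 6 of 6 libraries. Spry2 made up 59.7% to 85.4% of the summed Sprouty level per length, Spry1 10.9% to 31.3% and Spry4 0.816% to 8.94%. Over all 10 members, Fgfr1 and Spry2 had the highest mean levels in each population. Fgfr1 averaged 25.3 ± 17.7 CPM per kb (SD, n = 2) and Spry2 22.4 ± 8.81 (SD, n = 2) in the libraries labeled Gpr125-negative, and their ranges overlapped. They overlapped in TEB-distal libraries as well, at 27.5 ± 5.22 and 25.5 ± 7.65 CPM per kb (SD, n = 2). In the nipple-proximal libraries Fgfr1, at 48.6 ± 13.3, lay apart from Spry2, at 13.7 ± 6.92 CPM per kb (SD, n = 2). Spry1 and Fgfr2 took the next places, without overlap in the nipple-proximal (5.29 ± 0.953 and 2.59 ± 0.756 CPM per kb) and Gpr125-negative libraries (5.89 ± 2.38 and 2.82 ± 0.126, SD, n = 2 in each), and with overlap in TEB-distal libraries (4.30 ± 0.525 and 4.84 ± 2.26, SD, n = 2). Below them, Fgf1 and Fgf2 overlapped with each other in every population, and Fgf7 and Fgf10 came last in each.

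The members also differed in the sequence just before their starts. RefSeq windows of 300 bases (250 before the annotated start and 50 after it, GRCm38.p6) were at hand for 7 of the members, in 8 windows, 2 of them for Fgfr3. Windows were scored by their CG dinucleotides relative to the number that their C and G content predicts. Of the 8 windows, 6 reached a ratio of 0.6. Over all 32851 windows, those of genes without expression here included, 35.8% did. The share among genes that passed the filter on low counts, as these members other than Fgf10 did, was not counted. The 6 windows are therefore not read as a trait of the members. Spry2 had the highest ratio, 0.951 with 28 CG pairs, followed by Spry1, 0.935 with 29, and Fgf2, 0.842 with 24. Fgfr2, although expressed in 6 of 6 libraries, had the lowest, 0.283 with 4 CG pairs, and Fgf10, at 0 counts throughout, had 0.395 with 10. Among genes with a window in the table, 86.2% of the 9598 at or above the ratio of 0.6 passed the filter on low counts, and 28.6% of the 11379 below it. To show this contrast, the 250 bases before the start are printed 5′ to 3′ on the gene's strand for the CG-rich window of the leading Sprouty gene, for the CG-poor window of an expressed receptor and for the window of the undetected ligand, with CG pairs in capitals. They lie at chr14:105896820-105897069 (minus strand, Spry2), chr7:130266809-130267058 (minus strand, Fgfr2) and chr13:118714449-118714698 (plus strand, Fgf10).
Spry2: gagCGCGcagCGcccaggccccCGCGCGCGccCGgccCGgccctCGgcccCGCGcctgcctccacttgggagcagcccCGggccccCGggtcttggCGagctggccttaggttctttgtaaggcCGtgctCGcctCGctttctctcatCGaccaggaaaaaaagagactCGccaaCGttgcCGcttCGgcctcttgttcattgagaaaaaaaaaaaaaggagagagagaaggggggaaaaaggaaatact
Fgfr2: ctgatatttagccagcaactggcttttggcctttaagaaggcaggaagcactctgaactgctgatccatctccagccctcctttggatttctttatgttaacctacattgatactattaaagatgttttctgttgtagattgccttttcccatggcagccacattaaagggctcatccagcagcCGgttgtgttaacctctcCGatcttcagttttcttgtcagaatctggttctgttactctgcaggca
Fgf10: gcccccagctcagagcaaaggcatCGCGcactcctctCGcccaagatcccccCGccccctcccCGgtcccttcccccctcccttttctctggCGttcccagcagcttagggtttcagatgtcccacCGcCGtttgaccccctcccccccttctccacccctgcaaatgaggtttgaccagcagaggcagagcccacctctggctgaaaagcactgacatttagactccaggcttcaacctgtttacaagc
The printed stretches hold 23, 2 and 8 CG pairs. Neither the ETS motif CCGGAAGT, the AP-1 motif TGACTCA nor the CRE motif TGACGTCA, each searched on both strands, was found in any of the 8 windows, and they occur in 3.89%, 5.20% and 1.79% of all windows. That says only that these letters are not in these windows.

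Of the 10 members, 9 passed the filter on low counts and were tested among 17268 genes, with Fgf10 left out. Calls required an FDR (p adjusted by Benjamini-Hochberg over all genes tested) under 0.1 together with a difference of at least 2-fold. edgeR's quasi-likelihood test called 0 of the 9 members in each of the 3 comparisons, and 0 of them had an unadjusted p under 0.05. It called 0% of all genes in each comparison too. DESeq2 on all 6 libraries called 0 members in each, while it called 5.43%, 1.97% and 0.844% of the genes it tested in TEB-distal against Gpr125-negative, nipple-proximal against Gpr125-negative and TEB-distal against nipple-proximal comparisons. DESeq2 on the 4 compared libraries also called 0 members, with 4.33%, 2.00% and 2.26% of genes called. The spread between libraries was wide, with a biological coefficient of variation of 0.967, and with 2 libraries against 2 a two-sided exact permutation test cannot go below p = 0.333. The records describe each library as a pool of mice but do not say that the pools of a population were separate, so that p-values measure the spread between these libraries, which may be technical.

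The first comparison asked how TEB-distal Gpr125+ cells differ from cells labeled Gpr125-negative. Fgfr2 was higher in both TEB-distal libraries, by 0.78 on the log2 scale (SE 0.70, 95% interval -0.82 to 2.39, edgeR FDR = 1), and Fgfr3 was lower in both, at a log2 fold change of -2.78 (SE 1.79, 95% interval -6.94 to 1.37, edgeR FDR = 0.993). These were the only 2 of the 9 members whose libraries did not overlap, 1 in each direction, where 24.0% of all genes did not overlap. With scaling by library totals, the Fgfr2 libraries overlapped and those of Spry1 did not, with Spry1 lower in both TEB-distal libraries. Fgfr1 differed by 0.12 on the log2 scale (SE 0.77, 95% interval -1.65 to 1.90), and this value was -0.052 with library totals in place of TMM. Without the second Gpr125-negative library it was -0.47, and without the second TEB-distal library -0.09. For each of the 6 ligand and Sprouty genes tested, the sign turned when 1 or the other Gpr125-negative library was left out. Fgf1 had a log2 fold change of -1.12 (95% interval -6.40 to 4.17) with both, and 7.16 without the second Gpr125-negative library. Fgf2 went from -0.64 to 3.69 without that library, and Spry4 from 0.21 to -0.83 without the first. Fgf7, at -1.99, was at 1.24 without the first Gpr125-negative library, and Spry1, at -0.45, was at 0.026 without the second. Spry2, at 0.19, was at -0.31 without the first Gpr125-negative library and at -0.18 without the first TEB-distal library. The median over the 9 members was -0.45, beside 0.03 for all genes tested. The endothelial markers lay lower in this comparison as well, with log2 fold changes below 0 for 12 of 12, and 10 of them lower in both TEB-distal libraries. Of the 9 fibroblast markers tested 7 were above 0, with a median of 1.61, and of the 12 basal markers 10 were, with a median of 2.55. The part of these markers in the values of the members was not tested.

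The second comparison set nipple-proximal Gpr125+ cells against the same 2 libraries labeled Gpr125-negative, so that it shares its reference with the first. Fgfr1 was higher, by 0.94 on the log2 scale (SE 0.77, 95% interval -0.85 to 2.73, edgeR FDR = 1), and Fgfr3 was lower, at -1.15 (SE 1.69, 95% interval -5.09 to 2.78, edgeR FDR = 1). They were the 2 of 9 members whose libraries did not overlap, where 30.6% of all genes did not. For Fgfr3 this held with each of the 3 scalings, whereas the Fgfr1 libraries overlapped with DESeq2 size factors and with library totals. With library totals the Spry2 libraries did not overlap either, with the nipple-proximal pair lower. Fgfr2 was at -0.12 (95% interval -1.71 to 1.48), Spry1 at -0.15 (-2.07 to 1.76), Spry2 at -0.71 (-2.36 to 0.94) and Spry4 at -0.22 (-3.56 to 3.13), each an edgeR log2 fold change with its 95% interval. The Sprouty genes thus had 3 of 3 log2 fold changes below 0, but without the second Gpr125-negative library Spry1 was at 0.34 and Spry4 at 2.72. Smaller moves past 0 came without a nipple-proximal library: Spry4 was at 0.04 without the first, and without the second Spry1 was at 0.035 and Fgfr2 at 0.17. Fgf1, at -1.58, and Fgf2, at -1.45, were also positive without the second Gpr125-negative library, at 6.71 and 2.89. Fgf7, at 0.44, was at -0.47 without the same Gpr125-negative library and at -2.97 without the first nipple-proximal library. The median over the 9 members was -0.22, beside -0.0032 for all genes tested, and the 12 endothelial markers again all had log2 fold changes below 0. Of the basal markers 11 of 12 were above 0, with a median of 1.91, and of the 9 fibroblast markers tested 7 were below 0, with a median of -0.51. Their part was not tested here either.

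**Figure D3:**
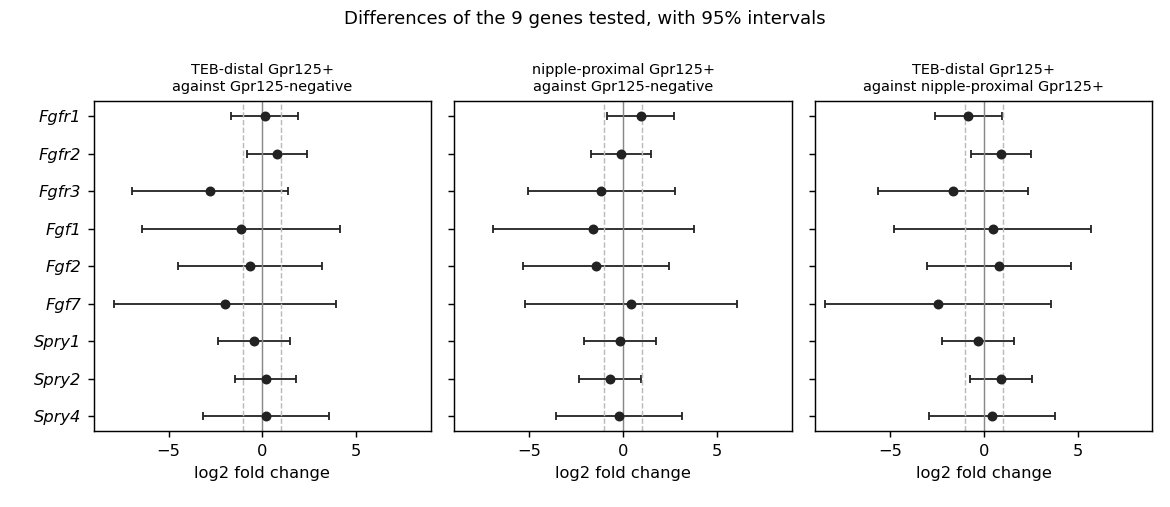
Log2 fold change from edgeR (points) with its 95% interval (bars) for the 9 genes tested, in 3 comparisons, with a solid line at 0 and dashed lines at a 2-fold difference. Every interval crosses 0, and those of Fgf1, Fgf2, Fgf7, Fgfr3 and Spry4 are the widest.

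The third comparison asked how the Gpr125+ populations of the TEB-distal and the nipple-proximal region differ, and the Gpr125-negative libraries stand on neither side of it, though all 6 libraries share the scaling, the filter and the estimate of spread. Fgfr2, Spry2 and Spry4 were higher in both TEB-distal libraries and Fgfr1 and Fgfr3 were higher in both nipple-proximal libraries, so that 5 of 9 members did not overlap, where 33.5% of all genes did not. The same 5 genes were separated in the same directions with TMM, with DESeq2 size factors and with library totals. None passed the test. Fgfr2 differed by 0.90 on the log2 scale (SE 0.70, 95% interval -0.71 to 2.51, edgeR FDR = 1), which is 1.86-fold, and Spry2 likewise by 0.90 (SE 0.71, 95% interval -0.76 to 2.55, edgeR FDR = 1), also 1.86-fold. Fgfr1 differed in the other direction, at -0.82 (SE 0.77, 95% interval -2.61 to 0.97, edgeR FDR = 1), or 1.77-fold. For these 3 genes the interval reached beyond 2-fold in the direction observed, and its other end lay on the opposite side of 0. Fgfr3 was at -1.63 (95% interval -5.62 to 2.36), resting on the 2 counts of the first TEB-distal library, and without that library it was at -0.63. Spry4 was separated by a small gap, 6.36 CPM in the lower TEB-distal against 6.26 CPM in the higher nipple-proximal library, with a log2 fold change of 0.42 (95% interval -2.93 to 3.78). Leaving out any of the 6 libraries kept the sign of Fgfr1, Fgfr2, Fgfr3, Fgf2 and the 3 Sprouty genes. Fgf1, at 0.47, fell on the other side of 0, at -2.33, without the first TEB-distal library, and at -0.09 without the second nipple-proximal library. Fgf7 was at -2.43, and at 0.98 without the first nipple-proximal library. The median over the 9 members was 0.42, beside 0.06 for all genes tested. Endothelial markers differed between these populations also, with 11 of 12 log2 fold changes below 0 and the first nipple-proximal library at a sum of 273 CPM. Of the 9 fibroblast markers tested, 7 were above 0, with a median of 2.17, and 5 were higher in both TEB-distal libraries, where 15.2% of all genes were. The sum of the fibroblast markers was 119 and 189 CPM in TEB-distal and 116 and 65.1 in nipple-proximal libraries. Of the 12 luminal markers 8 were above 0, with a median of 1.00. The part of these markers in the values of Fgfr2, Fgfr3, Spry2 and Spry4 was not tested.

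The rest of the pathway was followed with 77 genes in 8 lists, of which 76 were in the tables and 67 passed the filter. Spry3 was not analyzed here. edgeR called 0 of the 67 in each comparison. An unadjusted p under 0.05 was reached by 5 of them in the first comparison (4 higher, 1 lower, 6.05% of all genes), 3 in the second (3 higher, 3.55% of all genes) and 1 in the third (lower in TEB-distal cells, 2.21% of all genes). DESeq2 on all 6 libraries called 2, 1 and 1 of these genes.

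Of the other receptor genes, Fgfrl1, a receptor that lacks the kinase domain, was well expressed, at 72.2 and 13.0 CPM in the libraries labeled Gpr125-negative, 38.3 and 44.8 in TEB-distal and 55.2 and 38.9 in nipple-proximal libraries. Fgfr4 had 1 and 4 counts in the libraries labeled Gpr125-negative, 44 and 78 in TEB-distal and 0 and 26 in nipple-proximal libraries. Both TEB-distal libraries were above both Gpr125-negative ones, at a log2 fold change of 4.76 (SE 2.58, edgeR FDR = 0.899). The co-receptors of the hormone-like FGFs were low: Klb had 0 to 105 counts over the 6 libraries, and Kl had 63 counts in the second TEB-distal library and 0 or 1 in the other 5.

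Among the other secreted ligands, 7 of 14 passed the filter. Fgf21, a hormone-like FGF best known from liver and fat, was at 5.83 and 38.2 CPM in the libraries labeled Gpr125-negative, 30.4 and 122 in TEB-distal and 29.6 and 63.3 in nipple-proximal libraries. Per kilobase of exon it exceeded each of the 4 ligands above in 6 of 6 libraries, at 6.13 to 128 CPM per kb against at most 2.96. Fgf9 was at 5.79 and 15.3 CPM in the libraries labeled Gpr125-negative, 1.68 and 5.99 in TEB-distal and 5.70 and 12.5 in nipple-proximal libraries. Fgf23 was uneven, with 0 and 215 counts in the libraries labeled Gpr125-negative, 0 and 0 in TEB-distal and 215 and 26 in nipple-proximal libraries. DESeq2 on all 6 libraries called it lower in TEB-distal cells in both comparisons that involve them, while edgeR gave FDR = 0.815 against the Gpr125-negative and FDR = 1 against the nipple-proximal libraries.

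Fgf11, of the FGF homologous factors that stay inside the cell and do not act through FGF receptors, separated both Gpr125+ populations from the reference. It had 11 and 2 counts in the libraries labeled Gpr125-negative, 120 and 105 in TEB-distal and 133 and 128 in nipple-proximal libraries. All 4 Gpr125+ libraries were above both others, an order whose share over all genes was not counted. The pairs within each Gpr125+ population lay close together. The log2 fold change was 4.70 for TEB-distal (SE 1.68, edgeR FDR = 0.803) and 5.31 for nipple-proximal cells (SE 1.73, edgeR FDR = 1), so that it did not pass edgeR's threshold. DESeq2 on all 6 libraries called it in both, and again the comparisons share their reference. Fgf12 and Fgf13 had 0 to 31 and 0 to 80 counts. Fgfbp1, a carrier that releases FGFs from the matrix, was at 34.5 and 0.0339 CPM in the libraries labeled Gpr125-negative, 26.6 and 7.63 in TEB-distal and 1.03 and 0.424 in nipple-proximal libraries, so that both TEB-distal libraries exceeded both nipple-proximal ones (log2 fold change 4.55, SE 2.28, edgeR FDR = 1).

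Genes that ERK induces and inhibitors that feed back on the pathway were followed as a list, since the Sprouty genes are of this kind. The list does not cover every such gene, was chosen with earlier results of these data known, and leaves out the members Spry1, Spry2 and Spry4. Of these 3, 2 had log2 fold changes above 0 in the first comparison, 0 in the second and 2 in the third. ERK activity itself was not measured. Of the 11 listed, 10 were tested. Of the 10, 8 had log2 fold changes above 0 in TEB-distal against Gpr125-negative libraries, with a median of 0.65, beside 0.03 for all genes, and 5 of the 10 were higher in both TEB-distal libraries, where 14.0% of all genes were. In the nipple-proximal comparison 7 of 10 were above 0, with a median of 0.21 beside -0.0032 for all genes, and 3 were higher in both libraries, where 19.9% of all genes were. Between the Gpr125+ populations 8 of 10 were above 0, that is toward TEB-distal cells, with a median of 0.63 beside 0.06, and 2 were higher in both TEB-distal libraries, where 15.2% of all genes were. Scaling moved all genes together in the comparisons that involve nipple-proximal cells: with DESeq2 size factors and with library totals the median of all genes went to -0.17 and -0.23 in the second comparison and to 0.19 and 0.21 in the third. The median of the listed genes then was 0.037 and 0.081 in the second comparison and 0.75 in the third with either, where 10 of 10 lay above 0. Leaving out libraries moved these values. In the first comparison 7 of 10 were above 0 without the first Gpr125-negative library, with a median of 0.62 beside 0.53 for all genes, and 6 of 10 without the first TEB-distal library, with 0.42 beside -0.18. In the second comparison 6 of 10 were above 0 without the first Gpr125-negative library, with a median of 0.53 beside 0.40, and 5 of 10 without the second. In the third comparison 7 of 10 were above 0 when 1 or the other TEB-distal library was left out, with a median of 0.24 beside -0.039 without the first and 0.18 beside -0.072 without the second. The genes of the list are read from the same libraries, so that their number is not a number of replicates.

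Dusp5, a nuclear phosphatase of ERK, was the gene of this list with the smallest p. Its level was 16.7 and 33.0 CPM in the libraries labeled Gpr125-negative, 44.5 and 148 in TEB-distal and 57.9 and 52.7 in nipple-proximal libraries. All 4 Gpr125+ libraries were above both others, and the log2 fold change for TEB-distal cells was 1.95 (SE 0.79, edgeR FDR = 0.815). Dusp6, the cytoplasmic ERK phosphatase, was at 57.7 and 252 CPM in the libraries labeled Gpr125-negative, 183 and 101 in TEB-distal and 124 and 169 in nipple-proximal libraries. Like Spry4, it was lowest in the first and highest in the second Gpr125-negative library. Dusp4 and the ETS factor gene Etv5 ran at 25.9 to 54.6 and 24.0 to 42.3 CPM, and in both genes all 4 Gpr125+ libraries exceeded both Gpr125-negative ones. Over all genes, 14.0% were higher in both TEB-distal and 19.9% in both nipple-proximal than in both Gpr125-negative libraries. The share with both at once, as for Dusp4, Dusp5 and Etv5, was not counted, and both orders use the same 2 reference libraries. Etv4 (2.71 to 16.8 CPM) and Etv1 (0.0339 to 6.32 CPM) overlapped between populations. Of the Spred genes, relatives of the Sproutys, Spred2 stayed between 10.1 and 12.9 CPM in all 6 libraries, whereas Spred1 ranged from 14.1 to 157 CPM with both extremes in the TEB-distal pair. Spred3 was at 5.50 and 7.08 CPM in TEB-distal against 3.68 and 1.13 in nipple-proximal libraries, and Il17rd, a membrane inhibitor of FGF signaling, at 3.67 and 5.92 against 2.60 and 0.188 CPM. These were the 2 genes of the list that were higher in both TEB-distal than in both nipple-proximal libraries.

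**Figure D4:**
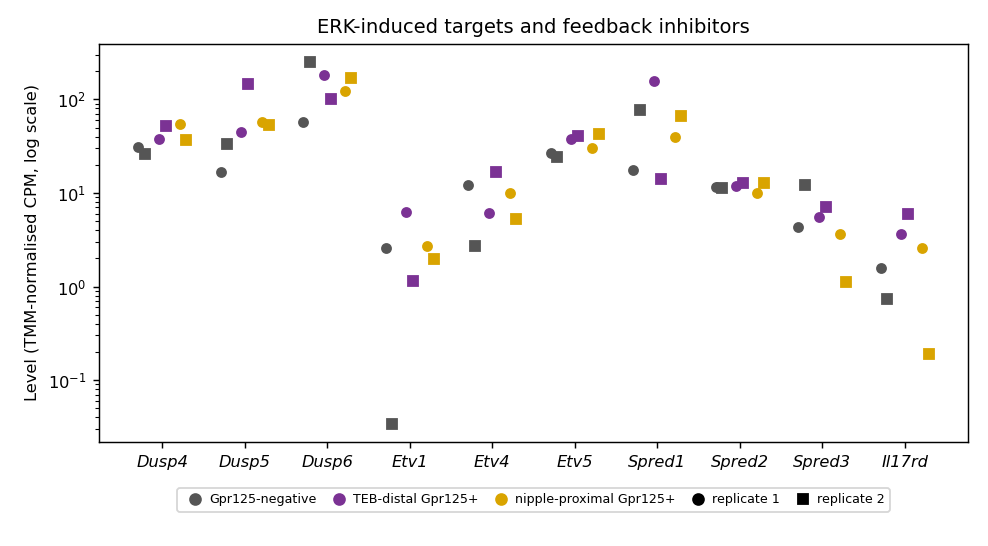
Level of the 10 tested ERK-induced targets and feedback inhibitors in TMM-scaled CPM (log axis), with circles for replicate 1 and squares for replicate 2 of each population. Dusp4, Dusp5 and Etv5 have all 4 Gpr125+ symbols above both Gpr125-negative ones, an order whose share over all genes was not counted. Spred2 varies least.

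The signal chain between receptor and target was expressed throughout. All 12 adaptor genes and all 12 genes of the RAS-ERK cascade passed the filter, and 0 of them were called by edgeR in any comparison. The adaptor gene Crk ran at 64.0 to 260 CPM, Shc1 at 41.2 to 148 and Crkl at 75.2 to 159. In the cascade, the MEK genes were Map2k1, at 96.8 to 750 CPM, and Map2k2, at 52.5 to 278 CPM. Of the 12 cascade genes, 10, 9 and 8 had log2 fold changes below 0 in the 3 comparisons, with medians of -0.40, -0.27 and -0.31. Of all 17268 genes, 8451, 8661 and 8177 were below 0, with medians of 0.03, -0.0032 and 0.06. Without the first Gpr125-negative library 7 of 12 cascade genes were below 0 in the first comparison, with a median of -0.70 beside 0.53 for all genes, and 6 of 12 in the second, with -0.028 beside 0.40. Without the second Gpr125-negative library 6 and 5 of 12 were below 0, with medians of -0.28 beside 0.23 and 0.12 beside 0.0032. In the third comparison, 6 to 11 of 12 were below 0 with 1 library left out. Of the 18 genes of heparan sulfate proteoglycans and their enzymes all were tested and 0 called by edgeR. The syndecan gene Sdc4 was at 223 and 519 CPM in the libraries labeled Gpr125-negative, 360 and 1359 in TEB-distal and 763 and 805 in nipple-proximal libraries. The glypican gene Gpc1 ran at 47.6 to 237 CPM and the syndecan gene Sdc1 at 44.1 to 121 CPM.

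For members with a mean of at least 1 CPM, the genes with the most similar pattern were sought among 127 genes of the pathway and cell marker lists, by the root mean square difference of log2 CPM over the 6 libraries after each gene's mean was removed. Fgfr1 was most like Shc1 (difference 0.235) and Mapk3 (0.296), against a median of 1.40 over the candidates. Spry1 was most like Grb2 (0.265) and Gpc6 (0.309), and Spry2 like the leukocyte marker Lyz2 (0.302) and Spred3 (0.569). Spry4 was most like the fibroblast marker Dcn (0.585) and Dusp6 (0.699), and Fgf2 like Fgf17 (0.528) and Rps6ka3 (0.650). The nearest genes of Fgfr3 were Fgf9 (1.08) and the endothelial marker Esam (1.36), and those of Fgf1 were Sulf1 (1.11) and the endothelial marker Kdr (1.21), all farther off. Fgfr2 was nearest to Lyz2 (0.465) and the luminal marker Epcam (0.466). A difference near the member's own standard deviation of log2 CPM shows little likeness. That holds for both genes of Fgfr2, whose standard deviation was 0.498, for Gpc6 beside Spry1 (0.322) and for Spred3 beside Spry2 (0.595). These are descriptions over 6 libraries that share depth and scaling.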

How the data were processed

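RNA of 6 libraries of sorted mouse mammary cells, 2 per population, was analyzed from the gene tables of the study. The SMART-Seq HT kit used for the libraries amplifies whole cDNA and keeps neither molecular identifiers nor strand. The authors aligned reads to mm10 with STAR, counted them per gene with HTSeq and deposited whole read counts without normalization, which were used as deposited. STAR 2.7.3 and CASAVA are named in the submitters' processing notes, while the paper's methods name an earlier STAR release, and the annotation release is not given in the sources used here. Of the 55291 symbols, 96.4% were found in GENCODE M21, from which exon lengths and shared exon bases were taken. Groups and replicate numbers came from the sample records. No column of the tables was left without a sample.

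Counts were tested in R 4.3.3 with edgeR 4.0.16 (limma 3.58.1): TMM scaling, filterByExpr by population, estimateDisp, robust glmQLFit and glmQLFTest, with the 6 libraries in 1 model. Genes were called at FDR under 0.1 and 2-fold, which the study's methods give for the comparisons with Gpr125-negative cells. For TEB-distal against nipple-proximal cells they give an adjusted p under 0.05 with 2-fold, at which edgeR also called 0 genes. A prior count of 2 was added for log2 CPM. The SE of a log2 fold change was not taken from the fit but derived from the log2 fold change and the test's F statistic. The 95% intervals use this SE and the test's degrees of freedom. Both are approximate, above all for genes with few counts in a library, such as Fgf1, Fgf7 and Fgfr3. DESeq2 1.42.0, other scalings, filters and thresholds, the replicate block and leaving out each library were alternatives. The procedures were also run on simulated counts with known changes. The share of changes recovered is not given here, so that the 0 calls of edgeR are not read as an absence of differences. Members of the gene set and all lists were chosen with earlier results of these data known.

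Genes named were the 10 members, the lists of other receptors and ERK-induced genes, the 3 genes with the highest mean CPM of each other list, and for each member at 1 CPM or more the 2 genes nearest in pattern. Promoter windows are from RefSeq (GRCm38.p6), and those on chromosome 18 and the Fgfr1 promoter were not used here. The values of 1 gene that the rule for named genes selects are not reported here.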

Additional observations from a re-analysis of the deposited data

How the results depend on the processing

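Of the 10 members, 0 were called under every alternative run. The number of all genes called by edgeR was 0 in each comparison and depended on the test: DESeq2 called 943, 321 and 133 genes on all 6 libraries and 682, 317 and 357 on the 4 compared libraries (TEB-distal against Gpr125-negative, nipple-proximal against Gpr125-negative, TEB-distal against nipple-proximal), and edgeR without its filter (genes with 1 count or more) called 137, 58 and 39. Leaving out 1 library gave 0 to 747, 0 to 335 and 0 to 12 genes, with 747 and 335 without the first Gpr125-negative library and 12 without the second nipple-proximal library. Of the other pathway genes DESeq2 called 2 (Fgf11, Fgf23), 1 (Fgf11) and 1 (Fgf23) on all 6 libraries and 3 (Fgf11, Fgf20, Fgf23), 1 (Fgf11) and 3 (Fgf20, Fgf23, Fgfbp1) on 4, and leaving out 1 library gave 0 to 3 in the first comparison (Fgf23, Fgfbp1 and Hs6st2 without the first Gpr125-negative library). Fgf20 and Hs6st2 are named here after their values were seen. The cause of these differences was not tested.

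Of 211 alternative log2 fold changes of the members other than those without a library, 208 kept their sign. Fgfr1 in TEB-distal against Gpr125-negative cells was -0.052 with library totals. Whether same-numbered libraries came from the same mice was not established. Deviations of same-numbered libraries correlated at -0.035, 0.19 and -0.0049, which cannot decide it, since each population gives a single deviation per gene. With the replicate number as a block 0 members were called. Fgf2 in the first comparison was then 0.53 and Spry4 in the second 0.39, against -0.64 and -0.22 in the main fit. With 1 library left out, 141 of 162 values kept their sign, the lone library of a population being assumed to vary like the others. In TEB-distal against Gpr125-negative cells the range was -0.47 to 0.99 for Fgfr1, -4.02 to 7.16 for Fgf1, -1.74 to 3.69 for Fgf2, -6.55 to 1.24 for Fgf7, -0.94 to 0.026 for Spry1, -0.31 to 0.65 for Spry2 and -0.83 to 3.13 for Spry4. In nipple-proximal against Gpr125-negative cells it was -0.45 to 0.17 for Fgfr2, -2.71 to 6.71 for Fgf1, -2.56 to 2.89 for Fgf2, -2.97 to 3.70 for Fgf7, -0.65 to 0.34 for Spry1 and -1.26 to 2.72 for Spry4. Between the Gpr125+ populations it was -2.33 to 1.35 for Fgf1 and -6.97 to 0.98 for Fgf7. Depth allowed Fgf10 no more than 0.147 CPM in any library and left Fgf7 and, in the first TEB-distal library, Fgfr3 at a few counts.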
